A study of Mus musculus with 6 samples.

Results

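Motor neurons are the neurons of the ventral spinal cord whose axons leave the cord to drive muscle and autonomic ganglia, and they release acetylcholine. The 9 genes described here, of 55487 in the deposited table, serve that transmitter or mark those cells. They were taken by symbol: Chat, Slc18a3, Slc5a7, Slc10a4 and Ache for acetylcholine, the homeodomain factors Mnx1, Lhx3 and Lhx4, and the lectin Chodl. The samples were thoracic pieces of spinal cord from mice at postnatal day 0, 3 labelled wild type (WT) and 3 labelled Myt1-/- for the zinc finger factor Myt1. The Myt1-/- samples are called null here after that label only, since 45.7% of the WT level of Myt1 RNA remained in them. The study is about Myt1 in the differentiation of oligodendrocytes. The labels name no strain, sex or treatment and do not describe the null allele. Nor do they state that the samples are different animals, so a p-value here speaks to the spread among 6 samples, which may be technical. The test used, limma, also draws each gene's spread toward that of other genes.

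Acetylcholine is made from choline and acetyl-CoA by choline acetyltransferase, loaded into vesicles by the vesicular transporter, split in the synaptic cleft by acetylcholinesterase, and its choline is taken back by a high-affinity transporter. In the embryonic cord, motor neuron identity is set by homeodomain proteins: Lhx3 acts with Isl1 in a complex that turns on motor neuron genes, Lhx4 overlaps with it in function, and Mnx1 (also called Hb9) keeps interneuron genes off in motor neurons. Lhx3 and Lhx4 also work in V2 interneurons, a neighbouring ventral class, so their transcripts are not restricted to motor neurons. Some cholinergic neurons of the cord are not motor neurons, among them the V0c interneurons and the autonomic preganglionic neurons of the thoracic cord.

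Chat (ENSMUSG00000021919) and Slc18a3 (ENSMUSG00000100241) form a nested pair, the cholinergic locus. In GENCODE M21 on GRCm38, Chat lies on chromosome 14 from 32408203 to 32465989 and Slc18a3 from 32462438 to 32464850, both on the minus strand. Slc18a3 starts 1139 bases downstream of the 5' end of Chat and lies in an intron of 4 of the 8 annotated Chat transcripts. None of the 8 shares an exon base with it. Unspliced RNA of those 4 transcripts would cover Slc18a3 on the same strand. Its part in the Slc18a3 values was not tested. An antisense gene, Gm2990, overlaps the first 948 bases of Chat on the other strand. The labels do not say whether counting used strand, so Chat reads there and Gm2990 reads cannot be told apart if it did not. Gm2990 was at 2.17, 4.03 and 2.97 TPM across WT and 2.54, 2.2 and 1.4 TPM across the null, below Chat in each of the 6 samples.

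The promoters of 5 members are shown, from 250 bases before to 50 bases after the start given by RefSeq on GRCm38.p6. Slc18a3 and Chat are the nested pair, Ache and Lhx4 are other members whose groups did not overlap, and Slc5a7 is the member whose window holds a Myt1 family motif. Capitals mark that motif, AAAGTTT, or the GC box, GGGCGG, on either strand. Their positions are chr14:32464801-32465100, minus strand, chr14:32465860-32466159, minus strand, chr17:54298985-54299284, minus strand, chr5:137288004-137288303, plus strand and chr1:155741978-155742277, minus strand.
Slc18a3: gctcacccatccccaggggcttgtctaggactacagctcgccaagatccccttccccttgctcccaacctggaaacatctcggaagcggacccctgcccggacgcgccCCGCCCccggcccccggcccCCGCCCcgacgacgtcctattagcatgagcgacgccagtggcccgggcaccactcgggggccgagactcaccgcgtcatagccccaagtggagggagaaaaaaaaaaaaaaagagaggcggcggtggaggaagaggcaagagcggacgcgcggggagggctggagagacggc
Chat: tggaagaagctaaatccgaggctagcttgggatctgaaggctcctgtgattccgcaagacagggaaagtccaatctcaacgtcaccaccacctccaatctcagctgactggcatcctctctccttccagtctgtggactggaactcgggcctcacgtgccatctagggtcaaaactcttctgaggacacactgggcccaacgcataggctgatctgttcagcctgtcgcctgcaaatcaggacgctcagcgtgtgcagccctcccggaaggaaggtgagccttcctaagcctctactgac
Slc5a7: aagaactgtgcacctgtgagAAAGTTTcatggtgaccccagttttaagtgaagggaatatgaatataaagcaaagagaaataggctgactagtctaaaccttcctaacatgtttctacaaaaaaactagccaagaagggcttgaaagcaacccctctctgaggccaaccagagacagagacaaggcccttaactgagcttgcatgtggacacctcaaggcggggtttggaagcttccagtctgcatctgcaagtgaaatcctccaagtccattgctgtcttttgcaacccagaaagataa
Ache: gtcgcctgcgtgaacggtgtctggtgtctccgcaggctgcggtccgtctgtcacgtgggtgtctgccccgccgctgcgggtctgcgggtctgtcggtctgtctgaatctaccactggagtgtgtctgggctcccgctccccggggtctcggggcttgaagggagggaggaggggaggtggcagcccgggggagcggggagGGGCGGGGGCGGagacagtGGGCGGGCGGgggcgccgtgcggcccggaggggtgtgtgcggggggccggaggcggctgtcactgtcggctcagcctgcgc
Lhx4: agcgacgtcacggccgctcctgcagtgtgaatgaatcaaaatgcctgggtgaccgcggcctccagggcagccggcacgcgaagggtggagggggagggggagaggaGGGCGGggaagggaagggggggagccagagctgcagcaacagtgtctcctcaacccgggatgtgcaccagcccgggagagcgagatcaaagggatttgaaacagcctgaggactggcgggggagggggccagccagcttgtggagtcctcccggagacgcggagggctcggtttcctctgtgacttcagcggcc

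RefSeq held 10 such windows for the 9 members, with 2 for Lhx3. AAAGTTT, searched on both strands, was in 1 of the 10, that of Slc5a7, and in 4.74% of all 32851 windows of the same length. GGGCGG was in 7 of the 10 and in 35.7% of all windows. Within the nested pair it was present in the Slc18a3 window, at 2 places, and not in the Chat window. The homeodomain site TAATTA was in 0 of the 10 and in 5.29% of all. Windows were rich in G and C for Ache (74.0%), Slc18a3 (67.0%) and Lhx4 (66.3%) and less so for Chat (55.7%) and Slc5a7 (44.7%), against a median of 52.7% over all windows. A match is a description of these letters and shows no binding.

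Values were TPM, which scale a gene's reads by transcript length and by the total of the sample, so levels of different genes can be compared. The table gives no counts, so depth is unknown. Between 22368 and 23000 genes were above 0 in each sample, and no 2 samples held identical values. WT replicate 1 stood apart by its share of mitochondrially encoded TPM, 11.3% against 8.64% to 9.04% in the others. Hoxc8 and Hoxc9, Hox genes expressed at thoracic levels, were at 56.3 to 76.1 and 20.3 to 37.3 TPM in the 6 samples. Myt1 averaged 12.2 ± 1.20 TPM across WT and 5.59 ± 0.475 TPM across the null (SD, n = 3 each), so that the samples labelled Myt1-/- kept 45.7% of the WT level. Every one lay below every WT sample, but a value per gene does not show which part of the transcript remained, and it does not by itself establish the label. Of 15962 genes tested with limma on log2(TPM + 1), 0 passed an adjusted p of 0.05 (0%), so no gene below passed the test. At an unadjusted p under 0.05 there were 499 lower (3.13%) and 690 higher (4.32%).

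Slc18a3, the vesicular acetylcholine transporter, was lower in every null sample. The WT samples held 28.6, 24.09 and 22.51 TPM of it, against 20.13, 18.1 and 18.91 TPM across the null. The groups did not overlap, and the highest value was that of WT replicate 1. Means were 25.1 ± 3.16 and 19.0 ± 1.02 TPM (SD, n = 3 each), 76.0% of WT. Differences are given as null minus WT of log2(TPM + 1), so that a negative value is lower in the null; here the difference was -0.37 (SE 0.10, 95% interval -0.61 to -0.13). Its unadjusted p in limma was 0.00835 and its adjusted p 0.669. With 1 library left out the difference ranged from -0.44 to -0.28, the latter without WT replicate 1. In cord tissue, fewer cells of a type and less RNA per cell cannot be told apart, here or for any member.

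Chat, choline acetyltransferase, makes acetylcholine and did not follow its nested neighbour sample by sample. It was at 3.17, 4.38 and 6.32 TPM across WT and at 3.03, 3.31 and 4.02 TPM across the null. The groups overlapped, since WT replicate 1 lay below the 2 higher null samples, and WT replicate 3 was highest. Means were 4.62 ± 1.59 and 3.45 ± 0.51 TPM (SD, n = 3 each), 74.7% of WT, close to the proportion for Slc18a3 but with a wide interval: the log2 difference was -0.30 (SE 0.22, 95% interval -0.84 to 0.23), with a limma adjusted p of 0.758. Without WT replicate 3 the difference was -0.10, and without WT replicate 1 it was -0.50.

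**Figure D1:**
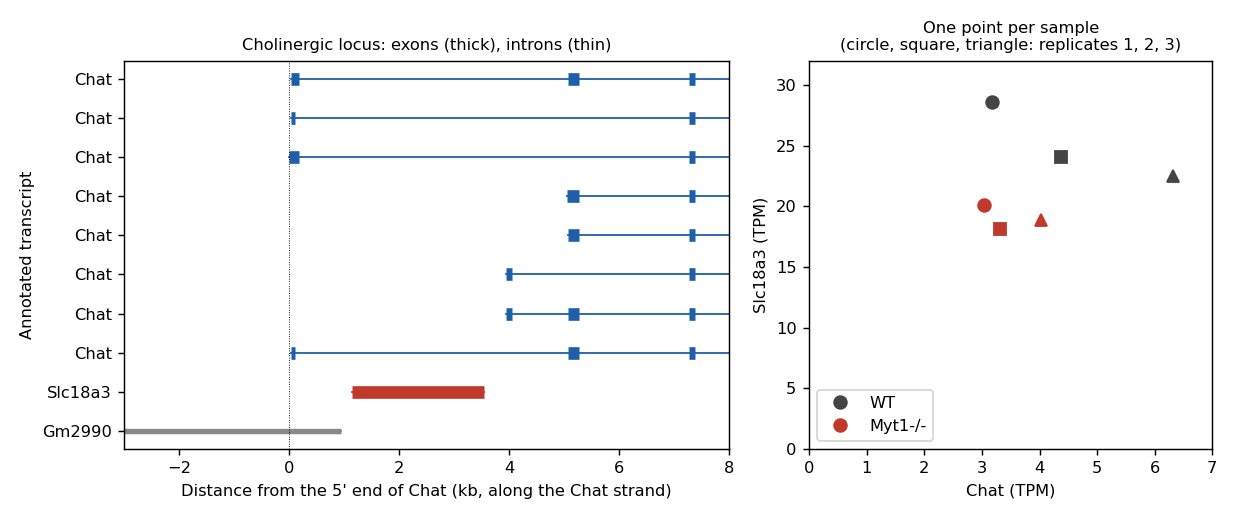
Left, the cholinergic locus by annotated transcript (vertical axis) against distance in kb from the 5' end of Chat along its strand, with exons thick and introns thin, cut off on the right. Right, Slc18a3 against Chat in TPM, 1 point a sample, WT grey and Myt1-/- red. Among the WT samples the sample with the most Slc18a3 (28.6 TPM) had the least Chat (3.17 TPM).

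In TPM, Slc18a3 was several times as abundant as Chat in every sample. The ratio of Slc18a3 to Chat was 9.02, 5.5 and 3.56 across the WT samples and 6.64, 5.47 and 4.70 in the null samples. WT alone thus spanned a wider range of ratios than the null, and the groups overlapped. The ratio of Slc18a3 to Slc10a4 was steadier, at 1.82, 1.59 and 1.63 in WT and 1.35, 1.30 and 1.39 in the null. These groups did not overlap, as those of Slc18a3 itself did not. The ratio of Slc18a3 to Slc5a7 was 1.68, 1.42 and 1.47 in WT and 1.32, 1.34 and 1.46 in the null, with overlap. Across the 6 samples, which share the genotype groups, log2 levels of Slc18a3 and Chat had a Pearson r of 0.07, whereas Slc18a3 had r = 0.89 with Slc5a7 and 0.93 with Ache.

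Slc5a7, the high-affinity choline transporter of cholinergic terminals (ENSMUSG00000023945, chromosome 17, 54273590 to 54299034, minus strand), was at 17.02, 16.96 and 15.27 TPM across WT and 15.29, 13.48 and 12.94 TPM across the null. The groups overlapped narrowly, null replicate 1 lying just above WT replicate 3. Means were 16.4 ± 0.993 and 13.9 ± 1.23 TPM (SD, n = 3 each), 84.7% of WT. The log2 difference was -0.23 (SE 0.09, 95% interval -0.45 to -0.01), with an unadjusted p of 0.0449 and an adjusted p of 0.671 in limma.

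Slc10a4, a vesicle protein of cholinergic and monoaminergic neurons that belongs to the bile acid transporter family (ENSMUSG00000029219, chromosome 5, 73006883 to 73012955, plus strand), had the smallest estimate among the cholinergic members with all 6 samples in the fit. It was at 15.73, 15.15 and 13.82 TPM across WT and at 14.88, 13.96 and 13.62 TPM across the null. The groups overlapped. Its log2 difference was -0.07 (95% interval -0.27 to 0.13; limma adjusted p = 0.845). It was -0.12 without WT replicate 3, where Chat was at -0.10, and -0.03 without WT replicate 1.

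Ache, acetylcholinesterase, ends the signal by splitting acetylcholine and was the most abundant member. On chromosome 5 (ENSMUSG00000023328, 137287519 to 137294466, plus strand), it was at 123.68, 97.61 and 95.41 TPM across WT and at 87.1, 88.92 and 85.11 TPM across the null. The null samples lay close together below every WT sample, and WT replicate 1 stood well above the other WT samples. Means were 106 ± 15.7 and 87.0 ± 1.91 TPM (SD, n = 3 each), 82.5% of WT. The log2 difference was -0.27 (SE 0.10, 95% interval -0.50 to -0.03), with an unadjusted p of 0.0342 and an adjusted p of 0.669 in limma. Without WT replicate 1 it was -0.15.

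Ache is also made by skeletal muscle and red blood cells, whose markers varied between samples. The summed level of 10 skeletal muscle genes was 16.5 to 22.4 TPM in 4 samples, 91.2 TPM across WT replicate 3 and 207 TPM in null replicate 3, with none at 0 in any sample. The summed level of 7 erythroid genes was 1268, 1759 and 7534 TPM across WT and 1821, 4773 and 6552 TPM across the null. The part of muscle or blood RNA in the Ache values was not tested.

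**Figure D2:**
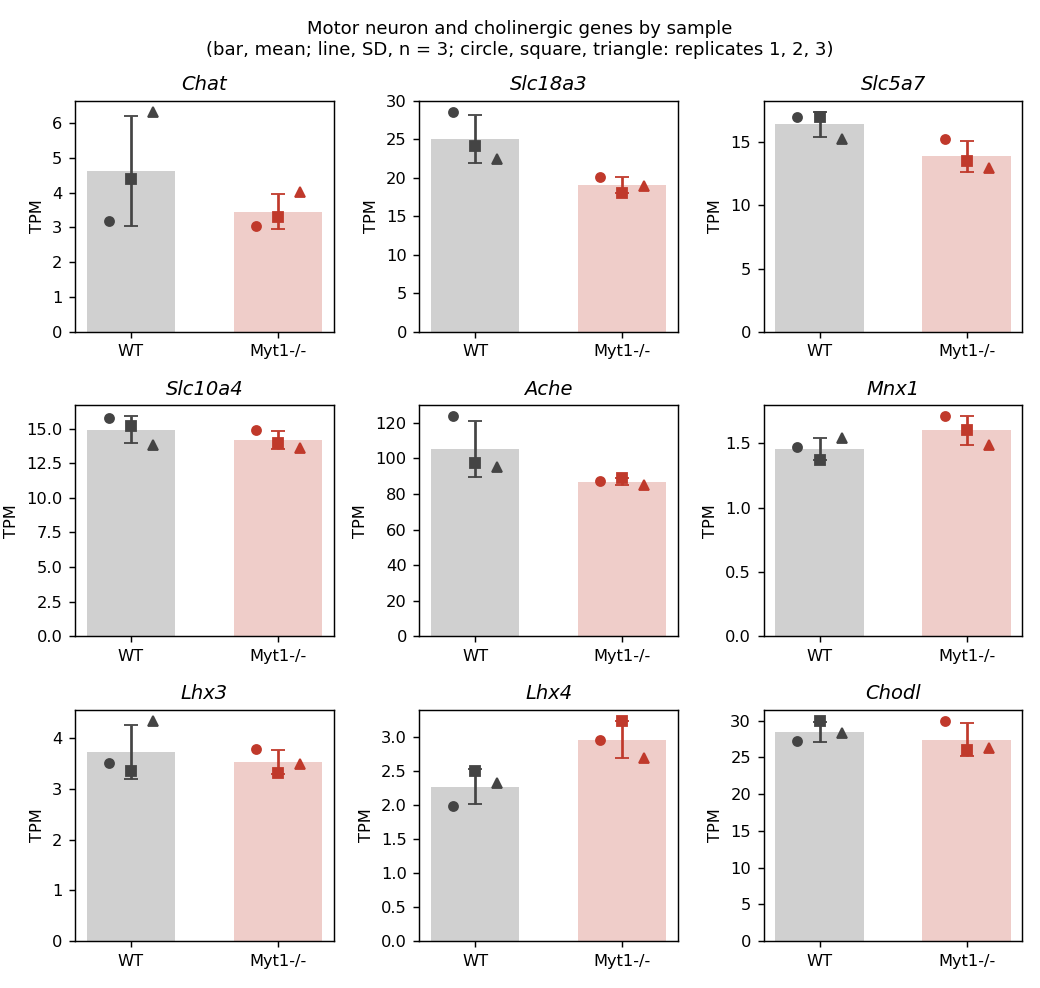
TPM of the 9 members in each panel's WT (grey) and Myt1-/- (red) samples, with replicates 1, 2 and 3 as circle, square and triangle; bars are means and lines the SD, n = 3. Slc18a3 and Ache lie below every WT sample in the null and Lhx4 lies above, while the other 6 members overlap.

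Other genes of choline supply and acetylcholine breakdown gave no common direction. Of 10 listed, 7 passed the filter of a mean of 1 TPM, 0 passed the test, 0 had an unadjusted p under 0.05, and their median log2 difference was 0.00. Bche, butyrylcholinesterase, a second enzyme that splits acetylcholine, was at 3.7, 3.05 and 3.84 TPM across WT and 4.06, 4.41 and 5.3 TPM across the null, so every null sample was above every WT sample (log2 difference 0.30, 95% interval -0.04 to 0.65). Prima1, which anchors acetylcholinesterase to neuronal membranes, averaged 6.85 and 6.90 TPM. Colq, which anchors it at the neuromuscular junction, did not pass the filter, at 0.21 to 0.40 TPM. Slc44a1, a choline transporter of many cell types, averaged 21.4 ± 2.58 TPM across WT and 17.9 ± 3.50 TPM across the null (SD, n = 3 each).

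Lhx4, a LIM homeodomain factor of motor neurons and V2 interneurons, went the other way from the cholinergic genes. On chromosome 1 (ENSMUSG00000026468, 155698031 to 155751684, minus strand), it was at 1.99, 2.5 and 2.33 TPM across WT and at 2.96, 3.24 and 2.69 TPM across the null. Every null sample was above every WT sample, though the smallest gap was under 0.2 TPM. Means were 2.27 ± 0.260 and 2.96 ± 0.275 TPM (SD, n = 3 each), a ratio of 1.30. The log2 difference was 0.28 (SE 0.14, 95% interval -0.06 to 0.62), with an unadjusted p of 0.0953 and an adjusted p of 0.693 in limma. Without a variance trend in the fit its unadjusted p was 0.0234.

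Lhx3, its paralog (ENSMUSG00000026934, chromosome 2, 26200212 to 26208289, minus strand), was at 3.5, 3.36 and 4.34 TPM across WT and 3.79, 3.32 and 3.49 TPM across the null. The groups overlapped, with WT replicate 3 highest, and the log2 difference was -0.06 (95% interval -0.38 to 0.27). Without WT replicate 3 it turned to 0.03. The ratio of Lhx3 to Lhx4 was 1.76, 1.34 and 1.86 in WT and 1.28, 1.02 and 1.30 in the null, without overlap, while the sum of the pair averaged 6.01 ± 0.604 and 6.50 ± 0.290 TPM (SD, n = 3 each).

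Mnx1 (ENSMUSG00000001566, chromosome 5, 29473034 to 29478470, minus strand) had the lowest level of the members, near the filter, at 1.47, 1.37 and 1.54 TPM across WT and 1.71, 1.6 and 1.49 TPM across the null. The groups overlapped, and the log2 difference was 0.08 (95% interval -0.28 to 0.44). Chodl, chondrolectin, a membrane lectin found in motor neurons and known from zebrafish for a role in motor axon growth, was at 27.21, 29.99 and 28.31 TPM across WT and 29.99, 25.99 and 26.28 TPM across the null (ENSMUSG00000022860, chromosome 16, 78930948 to 78951733, plus strand). Its highest WT and null values were the same to 2 decimals, and the log2 difference was -0.06 (95% interval -0.24 to 0.13).

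All 9 members passed the filter on low values. Counted together, 2 lay below every WT sample (Slc18a3 and Ache) and 1 above (Lhx4), beside 5.38% and 8.91% of all tested genes. At an unadjusted p under 0.05 there were 3, all lower (Slc18a3, Ache and Slc5a7), beside 3.13% of all tested genes. Without a variance trend there were 2 lower (Slc18a3 and Slc5a7) and 1 higher (Lhx4), the unadjusted p of Ache being 0.0582. With 1 library left out this number was 1 without null replicates 2 or 3. The number below every WT sample was 4 without WT replicate 3, which adds Slc5a7 and Slc10a4, and 4 without null replicate 1, which adds Slc5a7 and Chodl. With fewer samples the share of all tested genes below every WT sample was larger too, at 10.6% and 9.79%. Without WT replicate 3 or without null replicate 3, Mnx1 joined Lhx4 above every WT sample, beside 17.7% and 13.8% of all tested genes. With median-ratio scaling, the shares of all tested genes below and above were 7.07% and 7.39%. The median log2 difference was -0.07 over the members and 0.03 over all genes tested. These shares describe 9 genes chosen with earlier results known, and no test was made of the group.

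In order of WT level the members ran Ache, Chodl, Slc18a3, Slc5a7, Slc10a4, Chat, Lhx3, Lhx4 and Mnx1. The ranges of neighbours overlapped for Chodl and Slc18a3, Slc5a7 and Slc10a4, and Chat and Lhx3, and the other neighbours were apart. In the null, Slc10a4 stood above Slc5a7 and Lhx3 above Chat, both pairs with overlapping ranges, Chat and Lhx4 overlapped too, and the ranges of Chodl and Slc18a3 no longer overlapped.

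Chat, Slc18a3, Slc5a7 and Slc10a4, which make, load and recycle the transmitter or sit on its vesicles, were also read as a mean of log2(TPM + 1). That level was 3.80, 3.81 and 3.84 in WT and 3.61, 3.53 and 3.58 in the null. The WT samples were close together, since the opposite order of Chat and the other genes within WT evened out. Each WT sample was above every null sample. A list of 16 general neuronal genes had a mean log2 level within 0.024 of the WT mean in all 6 samples. Even so, 2 neurofilament genes inside it (Nefl and Nefm) were lower at an unadjusted limma p under 0.05, beside 3.13% of all tested genes. At that level 1 gene of young neurons (Dcx) was higher, beside 4.32% of all tested genes. Relative to that list the level of the 4 genes was -4.73 (SD 0.018) across WT samples and -4.96 (SD 0.027) across null samples, n = 3 each.

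**Figure D3:**
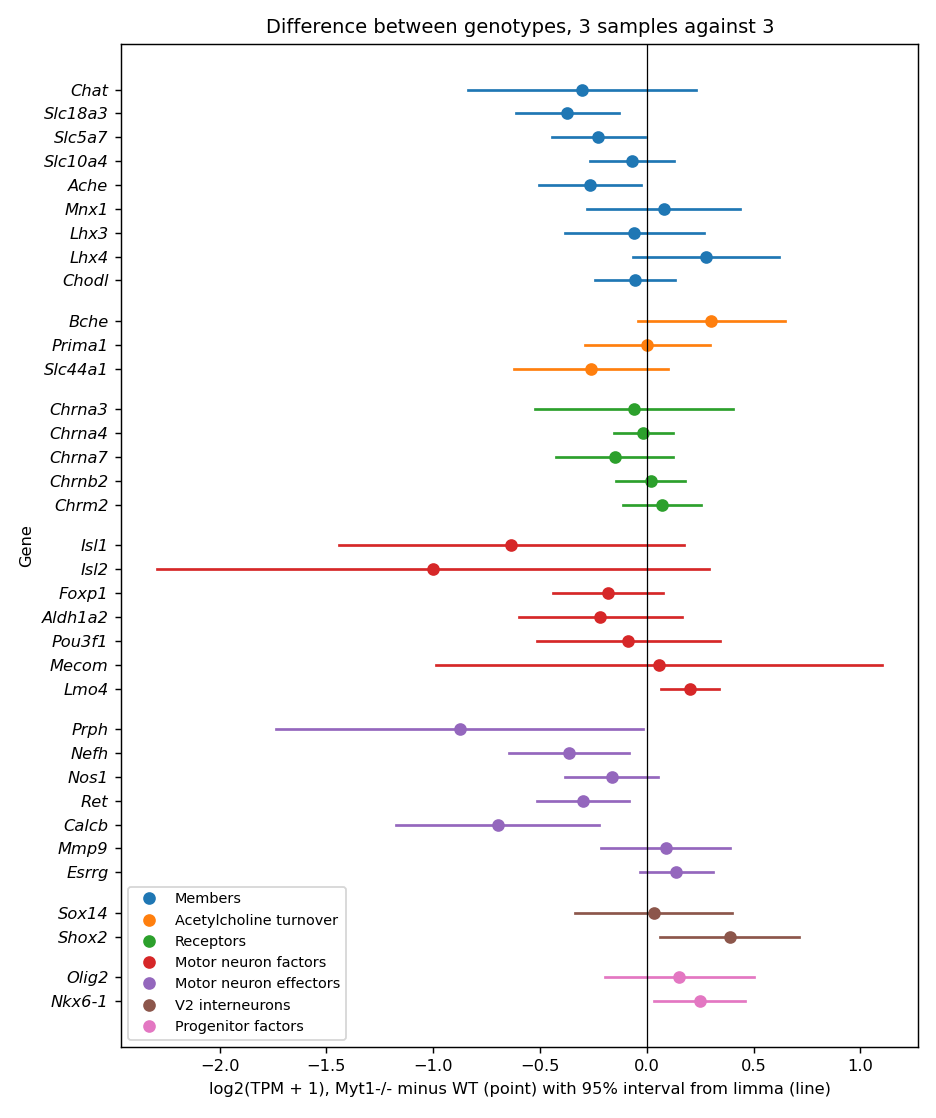
Log2(TPM + 1) difference, null minus WT (horizontal axis), for the members and named genes of related groups (vertical axis), as the limma estimate with its 95% interval. Among the members, intervals lie wholly below 0 for Slc18a3, Ache and Slc5a7. Among the others they lie wholly below 0 for Prph, Nefh, Ret and Calcb and wholly above 0 for Lmo4, Shox2 and Nkx6-1. Nefh, Calcb, Lmo4 and Nkx6-1 were drawn because their unadjusted limma p was under 0.05, so their intervals had to exclude 0.

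Other motor neuron transcription factors and column markers showed wide spread rather than a shared difference. All 12 listed genes were tested, 0 passed, and the median log2 difference was -0.06. At an unadjusted limma p under 0.05 there was 1, higher, beside 4.32% of all tested genes. That gene was Lmo4, a LIM-only protein that binds the same cofactor as Lhx3, at 101.84, 107.93 and 111.93 TPM across WT and 128.49, 116.57 and 125.56 TPM across the null (log2 difference 0.20, 95% interval 0.06 to 0.34). The cofactor, Ldb1, averaged 77.1 and 76.7 TPM.

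Isl1, the partner of Lhx3, was at 8.01, 7.25 and 17.88 TPM across WT and 6.47, 7.9 and 4.64 TPM across the null, with overlap. Isl2 spanned 6.84 to 15.3 TPM across WT and 1.44 to 7.84 TPM across the null. Both are also genes of sensory ganglia, whose markers varied between samples. The summed level of 9 sensory ganglion genes was 384, 312 and 555 TPM across WT and 312, 320 and 218 TPM across the null, most of it Sncg. The median log2 difference over the list was -1.10. The sum was highest in WT replicate 3, where Isl1, Isl2, Chat and Lhx3 were highest too, and lowest in null replicate 3, where Mrgprd was at 0. Isl1 and Isl2 were also lowest in null replicate 3. Lhx3 was not, and Chat was highest of the null samples there, at 4.02 TPM. In that sample 7 of the 9 genes were at 2.62 TPM or less, while Pou4f1 and Sncg were at 24.3 and 189 TPM. Of the 9, 1 (Sncg) was lower at an unadjusted limma p under 0.05, beside 3.13% of all tested genes. The part of ganglion RNA in these values was not tested.

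Markers of the motor columns overlapped between the groups, and none passed the test. Foxp1, which sets limb and preganglionic columns, averaged 20.8 ± 2.59 TPM across WT and 18.1 ± 1.28 TPM across the null (SD, n = 3 each). Aldh1a2, a retinoic acid synthesising enzyme made by motor neurons and by meninges, averaged 37.7 ± 8.37 and 31.7 ± 1.23 TPM. Pou3f1 averaged 4.13 and 3.86 TPM. Mecom ranged from 3.77 to 6.33 TPM across WT and from 2.49 to 10.7 TPM across the null, with its highest value in null replicate 3. Log2 differences were -0.18 for Foxp1, -0.22 for Aldh1a2 and -0.09 for Pou3f1, and 0.06 for Mecom with a 95% interval from -0.99 to 1.10.

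Effector genes of motor neurons included 4 of 16 with an unadjusted limma p under 0.05, all lower, beside 3.13% of all tested genes. The 4 were Prph, Nefh, Ret and Calcb, all of which sensory ganglion neurons express as well. Of the 16, 0 passed the test, and the median log2 difference was -0.12. Ret, the receptor for GDNF family ligands, was at 64.16, 54.34 and 60.91 TPM across WT and 52.38, 49.44 and 43.54 TPM across the null, with every null sample below every WT sample. Nefh, the heavy neurofilament subunit, averaged 85.5 and 66.0 TPM, Calcb, a CGRP peptide precursor, 20.5 and 12.3 TPM, and Prph, peripherin, 205 ± 74.9 and 111 ± 39.1 TPM (SD, n = 3 each). The groups overlapped for Prph, which like the ganglion sum was highest in WT replicate 3 and lowest in null replicate 3.

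Nos1, which marks preganglionic neurons of the thoracic cord as well as interneurons, was at 8.8, 9.84 and 9.75 TPM across WT and 8.09, 8.24 and 8.67 TPM across the null, below every WT sample (log2 difference -0.16, 95% interval -0.38 to 0.05). Mmp9, a protease of fast motor neurons, averaged 6.39 and 6.85 TPM. Esrrg, a nuclear receptor linked to gamma motor neurons, averaged 25.6 and 28.4 TPM, with every null sample above every WT sample.

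**Figure D4:**
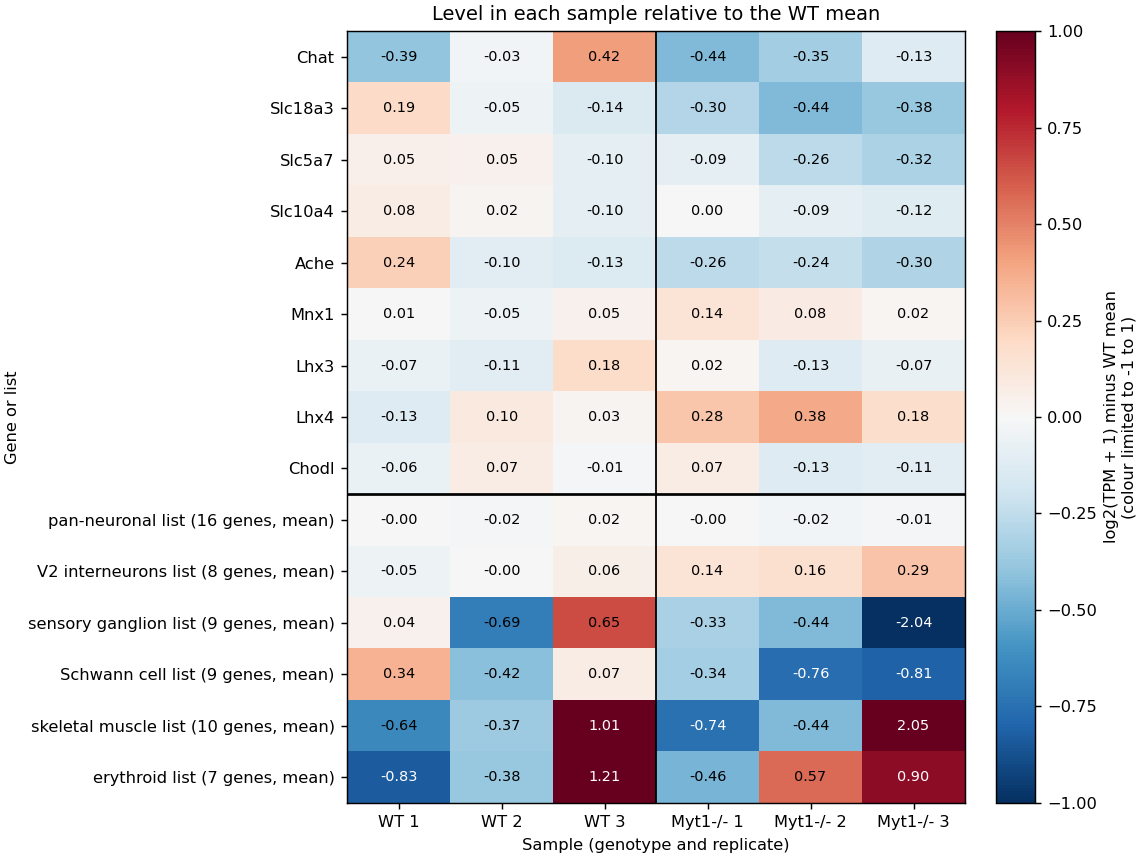
Level of each member (upper rows) and mean level of marker lists (lower rows) in each of the 6 samples (columns), as log2(TPM + 1) minus the WT mean, with colour limited to -1 to 1. The pan-neuronal list stays within 0.024 of 0, while the sensory ganglion list spans 0.65 in WT replicate 3 to -2.04 in null replicate 3.

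Roots leaving the cord carry Schwann cells as well. The summed level of 9 genes of these cells, which wrap motor and sensory axons, was 295, 172 and 278 TPM across WT. It was 173, 126 and 110 TPM across the null. Of the 9, 3 had an unadjusted limma p under 0.05, all lower, beside 3.13% of all tested genes. Log2 differences over the 9 ran from -1.37 to -0.25, with a median of -0.57. None of the 9 was at 0 in any sample. Of 5 sympathetic ganglion genes, Th and Phox2a passed the filter with log2 differences of -0.18 and -0.16, the sum of the 5 was between 2.84 and 6.31 TPM, and Dbh, the noradrenaline enzyme, at 0.32 TPM or less. The Schwann sum, Slc18a3, Slc5a7 and Slc10a4 were each highest in WT replicate 1 and, among the null samples, in null replicate 1. Chat went the other way and was lowest of its group in those samples, at 3.17 and 3.03 TPM. Ache was highest in WT replicate 1 but not, among the null samples, in null replicate 1. The part of root tissue in the cholinergic values was not tested.

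V2 interneuron genes, which share Lhx3 and Lhx4 with motor neurons, had estimates above 0 in all those tested, from 0.03 to 0.43 on the log2 scale, though none passed. The highest, Gata3, had overlapping groups and a 95% interval of -0.22 to 1.08. Of 8 listed, 6 were tested, 0 passed and the median log2 difference was 0.24. At an unadjusted limma p under 0.05, 1 (Shox2) was higher, beside 4.32% of all tested genes. Shox2, a factor of excitatory ventral interneurons, was at 4.58, 5.97 and 6.44 TPM across WT and 7.69, 7.25 and 8.04 TPM across the null (log2 difference 0.39, 95% interval 0.06 to 0.71). For Shox2 every null sample was above every WT sample, as for Lhx4. Sox14 averaged 2.13 and 2.20 TPM, with overlap.

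Factors of the progenitor domain that gives rise first to motor neurons and later to oligodendrocytes included 4 tested genes of 5. None passed, and 1 (Nkx6-1) was higher at an unadjusted limma p under 0.05, beside 4.32% of all tested genes. It was at 7.2, 6.61 and 6.99 TPM across WT and 8.3, 8.35 and 8.59 TPM across the null. Olig2, which is needed for both fates, averaged 30.7 ± 5.30 and 34.0 ± 4.24 TPM (SD, n = 3 each) with overlap. Neurog2, a proneural factor of newborn motor neurons, did not pass the filter.

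On the receiving side of acetylcholine, no receptor gene passed the test. Of 11 neuronal nicotinic subunits 6 were tested, with 0 at an unadjusted p under 0.05 and log2 differences from -0.15 to 0.03. Chrna4 and Chrnb2, which form the commonest brain nicotinic receptor, averaged 35.7 and 23.0 TPM across WT and 35.3 and 23.3 TPM across the null. Chrna3, the ganglionic alpha subunit, averaged 11.4 and 10.8 TPM, and Chrna7, which forms receptors on its own, 13.3 and 12.0 TPM. Chrnb4, the usual beta partner of Chrna3, did not pass the filter and was named after its values were seen. It was at 1.06, 1.2 and 1.05 TPM across WT and 0.68, 0.93 and 0.61 TPM across the null. Every null sample was below every WT sample, and the mean was 67.1% of WT. Without the filter, which leaves out only genes at 0 in every sample, 4.16% of genes lay below every WT sample.

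Of 5 muscarinic receptors, 4 were tested, with 0 at an unadjusted p under 0.05 and log2 differences from -0.16 for Chrm4 to 0.23 for Chrm5. Chrm2, a muscarinic receptor that motor neurons carry, was the most abundant at 13.1 ± 0.670 and 13.8 ± 0.181 TPM (SD, n = 3 each), and its log2 difference of 0.07 had a 95% interval of -0.11 to 0.25. Muscle-type nicotinic subunits were near the floor: none of the 5 passed the filter, their sum was 0.86 to 1.93 TPM, and Chrnd was listed at 0 in all 6 samples.

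Of the 5 genes whose levels ran most like the mean of Chat, Slc18a3, Slc5a7 and Slc10a4, those described here were Aatk, Ttbk1, Myt1 and Cdk18, with Pearson r from 0.986 to 0.993 over the 6 samples. Aatk was at 70.0, 69.5 and 70.8 TPM across WT and 52.5, 50.2 and 51.9 TPM across the null, and Ttbk1 at 28.9, 29.1 and 29.0 TPM and 27.0, 26.7 and 27.1 TPM. Of 15953 genes compared, 129 had an r of at least 0.9. With 6 points and a reference lower in the null, any gene with steady, separate groups that is lower in the null ranks high. This order is therefore a description.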

How the data were processed

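RNA sequencing of 3 WT and 3 Myt1-/- thoracic cords was read from 1 deposited table of TPM per gene. The authors' deposited TPM have 2 decimals. RSEM, DESeq2 and the GRCm38.p6 build appear in the submitters' processing notes without a role. Aligner, annotation and read filters were not given in those sources. One per-sample column (1 in all) matches no label and was not used. Total RNA went through an Illumina TruSeq kit, per the labels' protocols.

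Genes with a mean of at least 1 TPM over the 6 samples (15962) were fitted with limma 3.58.1 in R 4.3.3, with a variance trend, on log2(TPM + 1) with genotype as the only term. Tests were two-sided and p-values Benjamini-Hochberg adjusted over all genes tested, at a threshold of 0.05; on this scale differences of low genes are understated. The fit was tested on simulated data with changes larger than any member difference. That test does not speak to differences as small as those of the members. Members and lists were chosen with earlier results of these data known. Genes named were the 9 members, Myt1, a preset set of companions, companions with an unadjusted p under 0.05 or lowest or highest in a list, and the 5 most alike; Ldb1, Gm2990, Chrnb4, Chrnd, Neurog2, Dbh, Mrgprd, Hoxc8 and Hoxc9 were added after their values were seen. A few named by this rule are not reported here. Promoters are from RefSeq, positions from GENCODE M21, which held 55141 of the gene IDs. Alternatives were other pseudocounts, filters, scalings, no variance trend, a replicate block and leaving out each sample. Figures were drawn with matplotlib 3.10.9.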

Additional observations from a re-analysis of the deposited data

How the results depend on the processing

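Of 126 member values over 14 alternatives, 125 kept their direction and none passed an adjusted p of 0.05 in limma; the exception is Lhx3, which ranged from -0.11 to 0.032 with 1 library left out and was above 0 only without WT replicate 3. With a pseudocount of 0.1, 1 gene of the table passed, and with 1 library left out 0 to 7 did, none of them a member or a companion. Members below every WT sample numbered 2 to 4 with 1 library left out, beside 8.36% to 13.4% of all tested genes, and 3 with upper-quartile scaling, beside 6.74%. The median log2 difference of the members was -0.12 to -0.052 with 1 library left out, and -0.09 with median-ratio scaling, which moved the median of all genes from 0.025 to 0.0012. Slc18a3 kept an unadjusted p under 0.05 in 14 of 14 alternatives, Slc5a7 in 10 and Ache in 9. Lhx4 had one in 1, the fit without a variance trend. Replicate numbers are shared between groups without a stated pairing, and same-numbered samples had correlations of deviation of 0.03, -0.07 and 0.06. With replicate number as a block, 0 genes passed, Slc18a3 differed by -0.37 and the count of members below every WT sample was 2. Depth is unknown, and each group had 3 samples. For low genes such as Mnx1 the limma SE also drew on other genes of similar level. For Mnx1 it was 0.15 with the variance trend and 0.065 without it.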
